A study of Bos taurus with 9 samples.

Results

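Serine, folate and methionine metabolism in the liver of lactating Holstein cows is described here through 10 genes. They were chosen by name as enzymes of these linked pathways, with earlier results of these data known. All were found among the 28786 gene symbols of the read count table. They comprise the serine synthesis genes *PHGDH*, *PSAT1* and *PSPH*, the folate-dependent genes *SHMT1*, *SHMT2* and *MTHFD1*, and *GNMT*, *BHMT*, *MAT1A* and *CBS* of methionine and homocysteine metabolism. The study kept lactating cows under thermoneutrality (TN), under thermoneutrality with feed restricted to the intake of the heat-stressed cows (PF, pair-fed), or under heat stress, hotter by day than by night (HS). Each group had 3 cows, each cow gave 1 liver biopsy during the treatment period and 1 poly(A) RNA library, and the ages and genotypes of the cows were not given in the sources used here. The comparison of HS with TN holds heat and low intake together, and that of PF with TN holds low intake without heat. The comparison of HS with PF holds heat at a matched intake. The study also gives average days in milk that differed between the groups, lowest in TN and highest in PF cows. The part of lactation stage in the values below was not tested.

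Serine can be made in the liver from 3-phosphoglycerate, an intermediate of glycolysis and gluconeogenesis, by the successive action of the dehydrogenase PHGDH, the aminotransferase PSAT1 and the phosphatase PSPH. The hydroxymethyltransferases SHMT1 in the cytosol and SHMT2 in mitochondria interconvert serine and glycine and pass a one-carbon unit to tetrahydrofolate, which MTHFD1 and related enzymes carry between oxidation states. Methionine is activated to S-adenosylmethionine by MAT1A, S-adenosylmethionine is used by methyltransferases such as GNMT, and the homocysteine left over is either remethylated, for example by BHMT with betaine as the donor, or condensed with serine by CBS. Dairy cattle absorb little glucose from the diet, so the liver of a cow in milk draws on 3-carbon compounds and amino acids, serine among them, for glucose.

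Total counts ranged from 16874444 in a TN cow to 22557047 in an HS cow, with 3 cows in each group. Values are given as CPM, counts scaled to library sizes that were normalized by the trimmed mean of M-values (TMM), and can be compared between cows for 1 gene. Levels of different genes are not ranked against each other because transcript lengths were not used. All 8 hepatocyte markers, such as *ALB*, were detected in each of the 9 cows, and 2 of 5 skeletal muscle and 2 of 4 kidney markers had no count in any cow, the others of both lists summing to at most 0.255 and 1.42 CPM. TN replicate 1 stood apart before any comparison. The summed level of the hepatocyte markers was 16745 CPM in that cow and 59573 to 128500 CPM in the other 8 cows, 6 of the 8 markers had their lowest level there, and so did 26.9% of all 15073 genes tested over the 9 cows. Of the 10 genes described here, 7 were lowest in TN replicate 1, with *GNMT* tied at 0 counts with PF replicate 1. Ties with TN replicate 1 were counted for that cow, also in the share of all genes. For the same markers the PF sums ran from 87180 to 118926 CPM and exceeded those of all TN cows, and the HS sums from 59573 to 128500 CPM. The low level in TN replicate 1 was not shared by every liver gene. The markers *APOA1* (842 CPM) and *ASGR1* (431 CPM) were within the range of the other 8 cows. *GLDC*, described below, had its highest level of the 9 cows there, 213 CPM. In bulk tissue, fewer hepatocytes and less RNA per hepatocyte cannot be told apart, and the cause of the low marker sum was not tested. The share of counts on the 13 mitochondrially encoded genes was 13.6% to 22.2% in the TN group, 6.90% to 7.79% in the PF group and 3.84% to 5.68% in the HS group.

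The other marker lists overlapped between the groups for the most part. Leukocyte and Kupffer cell markers summed to 565 to 1146 CPM in TN, 340.4 to 789 CPM in PF and 818 to 1619 CPM in HS cows, so that each HS cow exceeded each PF cow. Endothelial markers lay between 425 and 701 CPM, cholangiocyte markers between 19.0 and 101 CPM and stellate cell and fibroblast markers between 189 and 479 CPM over the 9 cows. Erythroid markers summed to 4.08 to 23.1 CPM in TN cows and to 0.592 to 3.06 CPM in the other 6 cows. Periportal hepatocyte markers lay between 2465 and 4950.2 CPM and pericentral markers between 2626 and 7202 CPM, with overlap among all groups. The part of these markers in the values below was not tested.

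*PHGDH*, which commits 3-phosphoglycerate to serine, was the 1 gene of the 10 with every TN cow below every cow of both other groups. Its levels were 43.9, 76.4 and 94.0 CPM in TN replicates 1, 2 and 3, then 175, 205 and 121 CPM in the PF replicates and 132, 112 and 159.7 CPM in the HS replicates. The highest TN cow lay below the lowest of the other 6 cows, and the PF and HS cows overlapped. The group levels were 71.4 ± 25.4 CPM in TN, 167 ± 42.6 CPM in PF and 135 ± 24.1 CPM in HS cows (SD, n = 3). The log2 fold change (log2FC) was 1.22 (SE 0.35, 95% interval 0.46 to 1.99) in PF against TN cows and 0.90 (SE 0.31, 0.20 to 1.60) in HS against TN cows. Neither difference passed the threshold for a differentially expressed gene (DEG), a Benjamini-Hochberg FDR under 0.1 over all genes tested and a fold change over 1.5, in edgeR's quasi-likelihood test. The edgeR FDR was 0.693 for PF against TN (unadjusted p = 0.00479, rank 97 of 14580 genes) and 0.458 for HS against TN (unadjusted p = 0.0168). These comparisons share the TN cows and are not independent of each other. Between HS and PF cows the log2FC was -0.32 (SE 0.28, 95% interval -0.92 to 0.29, edgeR FDR 1.00).

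The call for *PHGDH* depended on the test. DESeq2 gave an FDR of 0.0533 for PF against TN cows, which made it a DEG there, and of 0.173 for HS against TN cows. The study used DESeq2 on the same libraries and also names *PHGDH* as upregulated in PF cows, so this call is not independent of it. Over the alternatives tried for PF against TN, the FDR of *PHGDH* ran from 0.0533 to 1.00 and its direction did not turn in any of the 16. Without TN replicate 1, whose *PHGDH* level was the lowest, the log2FC was 0.98 in PF and 0.66 in HS cows against the other TN cows. Set against albumin in the same cow, *PHGDH* had 0.501, 0.164 and 0.260 counts per 100 *ALB* counts in the TN replicates, 0.212, 0.416 and 0.222 in the PF replicates and 0.365, 0.329 and 0.196 in the HS replicates. On that scale the 3 groups overlapped, and the highest value was that of TN replicate 1.

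**Figure D1:**
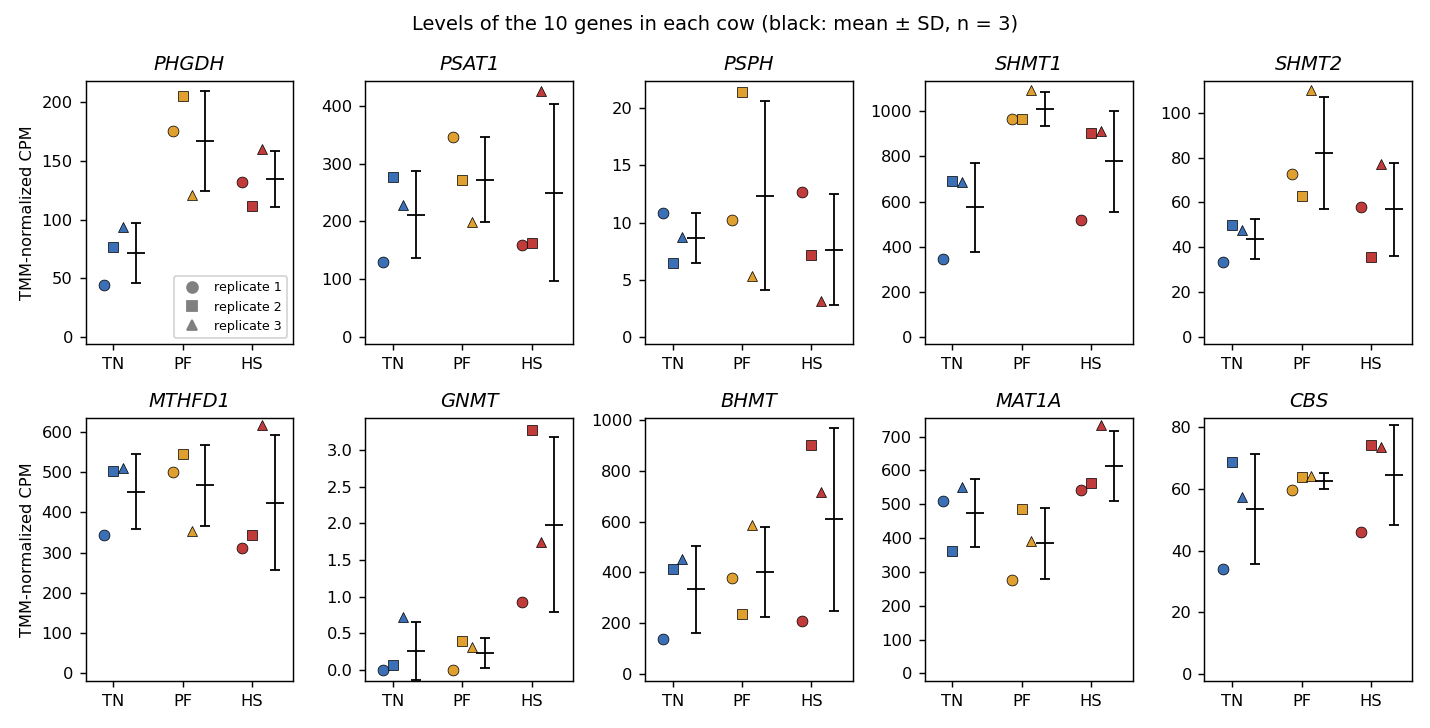
TMM-normalized CPM of the 10 genes in each of the 9 cows, by group (TN, PF, HS); each symbol is 1 cow, with its shape giving the replicate number, and the black bar is the mean ± SD of n = 3. *PHGDH* lay between 43.9 and 94.0 CPM in TN cows and between 112 and 205 CPM in the other 6 cows, while *MTHFD1* and *CBS* overlapped in all groups.

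The 2 enzymes after PHGDH did not share its pattern. *PSAT1*, which transfers the amino group, had 129, 278 and 229 CPM in the TN replicates, 346, 272 and 199 CPM in the PF replicates and 159, 163 and 427 CPM in the HS replicates. The groups overlapped, and HS replicate 3 was the highest of the 9 cows. Its log2FC was 0.36 (SE 0.37, 95% interval -0.44 to 1.17) in PF and 0.23 (SE 0.45, -0.79 to 1.24) in HS against TN cows, and -0.13 (SE 0.40, -1.01 to 0.75) in HS against PF cows. *PSPH*, which releases free serine, had 46 to 384 counts and the widest range of the 3 genes, with 10.8, 6.42 and 8.71 CPM in TN, 10.2, 21.5 and 5.35 CPM in PF and 12.7, 7.13 and 3.10 CPM in HS replicates. The highest and the lowest cow differed 6.93-fold, and no group stood apart. Its log2FC was 0.51 (SE 0.44) for PF against TN, -0.19 (SE 0.45) for HS against TN and -0.68 (SE 0.54) for HS against PF, each with an interval that holds 0. The last value was -0.015 without PF replicate 2, the highest cow, and -1.28 without HS replicate 1. The ratio of *PHGDH* to *PSAT1* within a cow, which does not depend on the library size, was 34.0, 27.5 and 41.1 *PHGDH* counts per 100 *PSAT1* counts in TN replicates. It was 50.6, 75.3 and 60.7 in PF replicates, above every TN cow, and 83.1, 68.4 and 37.4 in HS replicates, of which HS replicate 3 fell within the TN range.

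Both hydroxymethyltransferases were at higher levels in each PF cow than in each TN cow. *SHMT1* had 346, 690.3 and 688 CPM in TN replicates, 965, 968 and 1097 CPM in PF replicates and 518, 906 and 911 CPM in HS replicates. The 3 PF cows were the highest of the 9, above every HS cow as well, and the HS and TN cows overlapped. Its log2FC was 0.81 (SE 0.37, 95% interval -0.0022 to 1.63) for PF against TN (edgeR FDR 0.708, unadjusted p = 0.0505), 0.43 (SE 0.41) for HS against TN and -0.38 (SE 0.31, -1.06 to 0.30) for HS against PF. PF cows had 1010.2 ± 75.4 CPM, a coefficient of variation of 7.47%, against 34.5% in TN and 29.0% in HS cows. Without TN replicate 1 the log2FC of PF against TN was 0.56. The PF cows also had higher summed hepatocyte markers than the TN cows, and per 100 *ALB* counts *SHMT1* had 1.48 to 3.94 counts in TN cows, 1.17 to 2.02 in PF cows and 1.12 to 2.67 in HS cows, and the groups overlapped.

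*SHMT2*, the mitochondrial enzyme, had 33.4, 50.0 and 47.7 CPM in TN replicates, 72.9, 62.9 and 110.4 CPM in PF replicates and 57.9, 35.7 and 77.1 CPM in HS replicates. The PF cows lay above the TN cows, and the HS cows overlapped both groups. As for *SHMT1*, the PF cows also had higher summed hepatocyte markers than the TN cows. The part of these markers in the *SHMT2* values was not tested, and *SHMT2* was not set against *ALB*. The log2FC was 0.91 (SE 0.30, 95% interval 0.25 to 1.56) for PF against TN (edgeR FDR 0.697, unadjusted p = 0.0109), 0.37 (SE 0.30, -0.30 to 1.04) for HS against TN and -0.53 (SE 0.32, -1.23 to 0.17) for HS against PF. Without PF replicate 3, the cow with the highest level, the PF against TN value was 0.64. Within a cow, TN cows had 7.95 ± 1.49 *SHMT2* counts for every 100 *SHMT1* counts, PF cows 8.03 ± 1.83 and HS cows 7.86 ± 3.65, and the lowest and the highest of the 9 values, 3.94 and 11.2, were both in HS cows.

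*MTHFD1*, the cytosolic enzyme with 3 activities on tetrahydrofolate, had group levels of 452 ± 94.1 CPM in TN, 467 ± 100.2 CPM in PF and 424 ± 168 CPM in HS cows. Its single values were 343, 502 and 510.4 CPM in TN, 501, 546 and 354 CPM in PF and 311, 344 and 617 CPM in HS replicates. The lowest and the highest of the 9 cows were both HS cows. The log2FCs were 0.05 (SE 0.34, 95% interval -0.70 to 0.79) for PF against TN, -0.10 (SE 0.37, -0.94 to 0.73) for HS against TN and -0.14 (SE 0.33, -0.87 to 0.59) for HS against PF, so that a 1.5-fold difference in either direction lay inside each interval.

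*GNMT*, the glycine N-methyltransferase that consumes S-adenosylmethionine, had few counts in these libraries, although it is known as an abundant liver enzyme in other mammals. The annotation release used for counting was not given in the sources used here, so it could not be checked whether the counted gene model takes up most *GNMT* reads, and its counts, fold changes and DESeq2 call hold only for the reads that were counted. It had 0, 1 and 12 counts in TN replicates, 0, 7 and 6 counts in PF replicates and 25, 56 and 26 counts in HS replicates. Each HS cow had more than each of the other 6 cows, at 0.923 to 3.27 CPM, where a count of 0 allows up to 3 counts, or 0.111 to 0.202 CPM depending on the library. The log2FC was 3.03 (SE 0.93, 95% interval 0.98 to 5.08) for HS against PF (edgeR FDR 0.638, unadjusted p = 0.00775) and 2.94 (SE 1.11, 0.45 to 5.43) for HS against TN (edgeR FDR 0.486, unadjusted p = 0.0255). DESeq2 gave an FDR of 0.0945 for HS against PF, a DEG by the same thresholds, and of 0.172 for HS against TN. Without TN replicate 3, which held 12 of the 13 TN counts, the HS against TN value was 5.88, and without TN replicate 1 it was 2.31. The filter on low counts removed *GNMT* from the comparison of PF with TN, so that no fold change is given there. In the tests with HS cows it passed that filter only through its HS counts. Its p-values, its DESeq2 call and its lack of overlap there are therefore description only.

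*MAT1A*, which makes S-adenosylmethionine in hepatocytes, had its highest group level in HS and its lowest in PF cows. Its values were 510.4, 361 and 549.6 CPM in TN, 277, 487 and 390.0 CPM in PF and 543, 564 and 733 CPM in HS replicates. Every HS cow exceeded every PF cow, and the TN cows overlapped both. The log2FC was 0.67 (SE 0.30, 95% interval 0.0077 to 1.33) for HS against PF (edgeR FDR 0.924, unadjusted p = 0.0478), 0.35 (SE 0.34) for HS against TN and -0.30 (SE 0.35) for PF against TN. DESeq2 gave an FDR of 0.565 for HS against PF. The leukocyte and Kupffer cell markers also summed to more in every HS cow than in every PF cow, and their part in the *MAT1A* and *GNMT* values was not tested.

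*BHMT*, the betaine-dependent remethylation enzyme, had 137, 413 and 451 CPM in TN, 378, 235 and 588 CPM in PF and 208, 901 and 716 CPM in HS replicates. The highest cows were HS replicates 2 and 3, but HS replicate 1 was lower than 7 of the other 8 cows, and the groups overlapped. The log2FC was 0.86 (SE 0.59, 95% interval -0.46 to 2.17) for HS against TN, 0.60 (SE 0.50) for HS against PF and 0.26 (SE 0.48) for PF against TN. *CBS*, the first enzyme of transsulfuration, had 53.5 ± 17.8 CPM in TN, 62.6 ± 2.54 CPM in PF and 64.6 ± 16.2 CPM in HS cows. Its PF cows lay close together, at 59.7, 63.8 and 64.3 CPM, within the ranges of the TN cows (34.0 to 68.9 CPM) and the HS cows (46.0 to 74.4 CPM). The log2FC of *CBS* was 0.22 (SE 0.29) for PF against TN, 0.26 (SE 0.30) for HS against TN and 0.04 (SE 0.24, 95% interval -0.50 to 0.58) for HS against PF.

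**Figure D2:**
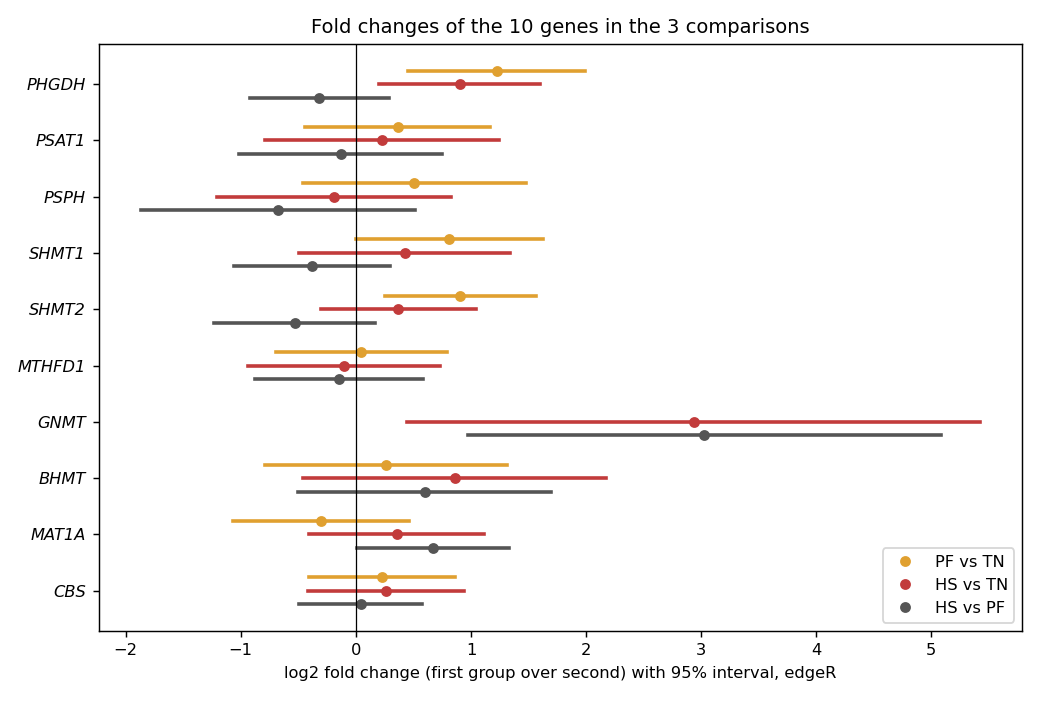
Log2 fold changes of the 10 genes (points) with 95% intervals (lines) from edgeR for PF against TN, HS against TN and HS against PF; *GNMT* was not tested in PF against TN. The intervals of *PHGDH* lay above 0 in both comparisons with TN cows (0.46 to 1.99 and 0.20 to 1.60), and most others crossed 0.

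Counted over the 10 genes, edgeR called 0 DEGs in each comparison. Between PF and TN cows 9 of the 10 were tested, 0 were DEGs where 0% of all 14580 genes were, and 2 (*PHGDH* and *SHMT2*) had an unadjusted p under 0.05, both higher in PF cows, where 6.88% of all genes had such a p, 2.99% higher and 3.89% lower. The PF cows lay above the TN cows without overlap in 3 genes, the same 2 and *SHMT1*, where 13.2% of all genes tested did not overlap, 6.81% with the PF cows higher and 6.36% with them lower. Of these 9 genes, 8 had a log2FC above 0, as had 48.8% of all genes tested, and their median was 0.36 where that of all genes was -0.014. Of the 10 genes, 7 had their lowest level in TN replicate 1. Without that cow *MTHFD1* and *CBS* fell below 0 (-0.11 and -0.011). *PSPH* did so without PF replicate 2 (-0.15) and *BHMT* without PF replicate 3 (-0.11), while *MAT1A* stayed below 0 with any 1 cow omitted. DESeq2 called 1 gene, *PHGDH*, where it called 0.555% of all genes.

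Between HS and TN cows all 10 were tested, and 0 were DEGs by edgeR, where 0.0892% of all 14582 genes were. *PHGDH* and *GNMT* had an unadjusted p under 0.05 and did not overlap, both higher in HS cows. Over all genes tested 9.36% had such a p, 4.13% higher and 5.23% lower, and 16.1% did not overlap, 8.37% with the HS cows higher and 7.7% with them lower. A log2FC above 0 was found for 8 of the 10 genes and for 49.3% of all genes, with medians of 0.36 and -0.0082. *PSAT1* fell below 0 without TN replicate 1 (-0.019) and without HS replicate 3 (-0.40). In the other direction, *PSPH* rose above 0 without HS replicate 3 (0.18) and *MTHFD1* without HS replicate 1 (0.080). DESeq2 called 0 of the 10 and 1.75% of all genes. Between HS and PF cows 0 of the 10 were DEGs by edgeR, against 0.0276% of all 14510 genes. *GNMT* and *MAT1A* had an unadjusted p under 0.05, both higher in HS cows (5.32% of all genes, 3.07% higher and 2.25% lower), and did not overlap, and *SHMT1* did not overlap with the HS cows lower (10.5% of all genes, 5.95% with the HS cows higher and 4.58% with them lower). A log2FC above 0 was found for 4 of the 10 genes and for 50.9% of all genes, with medians of -0.14 and 0.0069. DESeq2 called 1 gene, *GNMT*, where it called 0.771% of all genes. In both comparisons *GNMT* passed edgeR's filter on low counts only through the HS cows, so its place among these genes is description only.

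A test of the 3 groups together on all 9 libraries also called 0 of the 10 genes with edgeR, where 0.0464% of 15073 genes were called. Of them *PHGDH*, *GNMT* and *SHMT2* had an unadjusted p under 0.05, as did 7.86% of all genes, with edgeR FDRs of 0.438, 0.588 and 0.614. Here too *GNMT* passed the filter on low counts only through its HS counts. The likelihood ratio test of DESeq2 gave *PHGDH* an FDR of 0.0474 and called 1.89% of all genes.

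**Figure D3:**
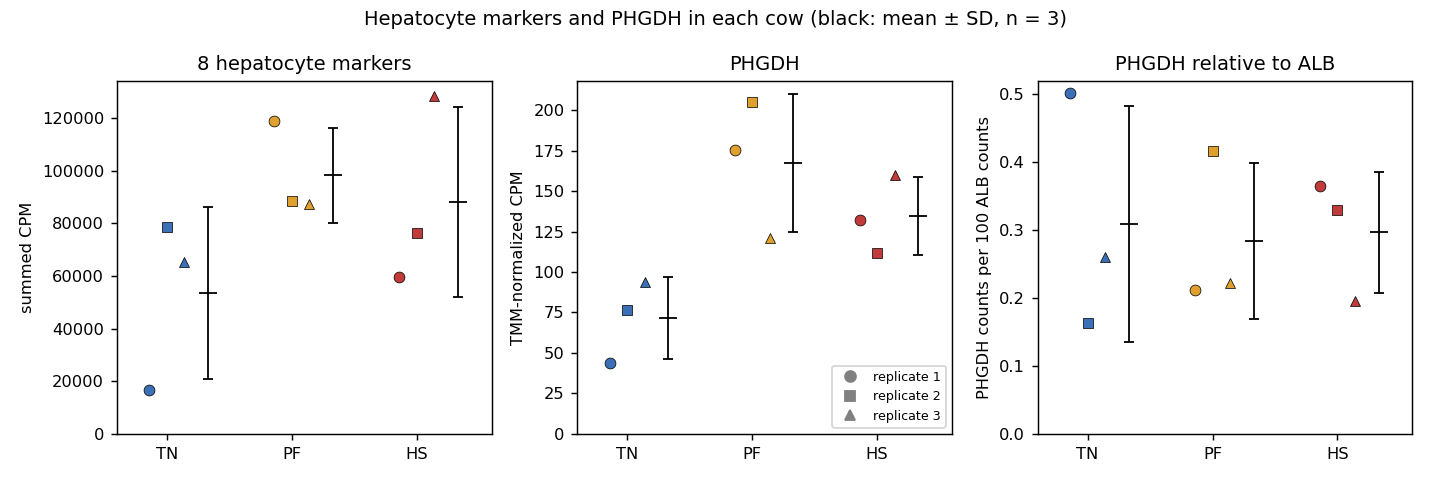
Summed CPM of 8 hepatocyte markers, CPM of *PHGDH*, and *PHGDH* counts per 100 *ALB* counts in each of the 9 cows; symbols give the replicate number and black bars the mean ± SD of n = 3. TN replicate 1 had the lowest marker sum, 16745 CPM, the lowest *PHGDH* level and the highest *PHGDH* value per 100 *ALB* counts, 0.501.

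Around these 10 genes, 61 of 62 further symbols of the serine and glycine, folate, and methionine, choline and transsulfuration lists were found in the counts and tested. EdgeR called 0 of the 61 in each comparison. Between PF and TN cows 5 had an unadjusted p under 0.05 with higher and 5 with lower levels in PF cows, where 2.99% and 3.89% of all genes tested had such a p, and the median log2FC was 0.21. Between HS and TN cows these numbers were 4 and 5 (4.13% and 5.23% of all genes), with a median of 0.093, and between HS and PF cows 2 and 3 (3.07% and 2.25% of all genes), with a median of -0.063. DESeq2 called 2 of the 61 between HS and TN (*SQOR* and *CSAD*), 2 between HS and PF (*GLDC* and *ALDH1L2*) and 0 between PF and TN, where it called 1.75%, 0.771% and 0.555% of all genes.

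The largest contrast in the serine and glycine list was that of *GLDC*, the glycine-decarboxylating subunit of the glycine cleavage system. It had 89.9, 54.0 and 61.5 CPM in PF replicates and 172, 140.4 and 162 CPM in HS replicates, with TN cows at 213, 85.7 and 182 CPM. Each HS cow exceeded each PF cow, and 1 TN cow lay within the PF range. The log2FC was 1.20 (SE 0.26) for HS against PF (edgeR FDR 0.315, DESeq2 FDR 0.00287) and -1.23 (SE 0.38) for PF against TN (edgeR FDR 0.693, DESeq2 FDR 0.103). *SDS*, which deaminates serine to pyruvate, had log2FCs of 0.07 (SE 0.37) for PF against TN, 0.43 (SE 0.28) for HS against TN and 0.36 (SE 0.38) for HS against PF. In this list of 16 genes, 0 had an unadjusted p under 0.05 between HS and TN cows, 1 between HS and PF cows and 3 between PF and TN cows, where the shares of all genes were 9.36%, 5.32% and 6.88%.

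In the folate list of 22 genes, *ALDH1L2*, the mitochondrial formyltetrahydrofolate dehydrogenase, had 12.4, 10.6 and 11.2 CPM in TN, 23.1, 13.5 and 26.1 CPM in PF and 10.4, 4.21 and 5.05 CPM in HS replicates. The PF cows were above and the HS cows below every TN cow. Its log2FC was -1.66 (SE 0.38) for HS against PF (edgeR FDR 0.315, DESeq2 FDR 0.00888), 0.88 (SE 0.29) for PF against TN (edgeR FDR 0.697) and -0.80 (SE 0.35) for HS against TN (edgeR FDR 0.522). *MTR*, the folate-dependent methionine synthase, had log2FCs of -0.16 (SE 0.27), -0.25 (SE 0.25) and -0.07 (SE 0.23) for PF against TN, HS against TN and HS against PF. The mitochondrial *MTHFD2* had mean levels of 1.33 CPM in TN, 1.29 CPM in PF and 2.44 CPM in HS cows, from 12 to 59 counts per library. Each HS cow exceeded each TN cow in *MTHFD2*, with a log2FC of 0.86 (SE 0.54, edgeR FDR 0.608), and the PF cows overlapped both groups. *MTHFD1L* had mean levels of 3.97, 3.24 and 2.54 CPM in TN, PF and HS cows, with overlap among all groups.

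In the methionine, choline and transsulfuration list, the smallest unadjusted p between HS and TN cows belonged to *CSAD*, a decarboxylase of taurine synthesis, and *SQOR*, which oxidizes sulfide in mitochondria. *CSAD* had 123 ± 50.6 CPM in TN and 41.6 ± 21.1 CPM in HS cows, a log2FC of -1.58 (SE 0.46, edgeR FDR 0.392, DESeq2 FDR 0.0279), and *SQOR* had 59.5 ± 24.0 and 128 ± 32.9 CPM, a log2FC of 1.10 (SE 0.34, edgeR FDR 0.419, DESeq2 FDR 0.0813). PF cows ranged from 25.1 to 257 CPM for *CSAD*, across both groups. *CHKA*, a choline kinase, had 244 ± 206 CPM in TN and 48.7 ± 27.1 CPM in PF cows, a log2FC of -2.33 (SE 0.69, edgeR FDR 0.693) with overlap, as 1 TN cow had 45.9 CPM. *AHCY*, which hydrolyses S-adenosylhomocysteine, had log2FCs of 0.58 (SE 0.41) for PF against TN and 0.50 (SE 0.47) for HS against TN. For *MAT2A*, another methionine adenosyltransferase gene, these were 0.11 (SE 0.34) and 0.35 (SE 0.33). For *CTH*, which follows CBS, they were 0.24 (SE 0.34) and -0.23 (SE 0.33).

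The transcription factor ATF4 and its targets were listed because serine synthesis genes are known targets of ATF4 in mammals. Of 14 genes, 13 were tested between PF and TN cows, 12 between HS and TN and 13 between HS and PF, and edgeR called 0 in each. *ATF4* itself had log2FCs of -0.07 (SE 0.34) for PF against TN, -0.46 (SE 0.29) for HS against TN and -0.38 (SE 0.28) for HS against PF, and *ASNS*, asparagine synthetase, of 0.02 (SE 0.25), -0.42 (SE 0.29) and -0.42 (SE 0.29). With an unadjusted p under 0.05, 1 gene was higher and 2 lower in PF than in TN cows, against 2.99% and 3.89% of all genes. By the same threshold 2 were higher in HS than in TN cows (4.13% of all genes), and 1 was higher and 1 lower in HS than in PF cows (3.07% and 2.25% of all genes). Among them *FGF21*, a fasting-associated hepatokine, had 1.42, 28.5 and 10.2 CPM in PF replicates and 0 to 3.22 CPM in the other 6 cows, with a log2FC of -3.49 (SE 1.06, edgeR FDR 0.625) for HS against PF, and *EIF4EBP1*, a translation repressor, had 28.8 ± 11.4 CPM in TN and 56.9 ± 14.4 CPM in HS cows with a log2FC of 0.97 (SE 0.32, edgeR FDR 0.456).

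Over the 9 cows, the genes whose log2 CPM followed that of *PHGDH* most closely were *POLR2E* (r = 0.987), *EEF1G* (r = 0.978) and *B3GALT6* (r = 0.975). They were picked as the highest of the genes tested in the same libraries, and without TN replicate 1 their values were 0.978, 0.947 and 0.947 over 8 cows. The closest genes were *LDAH* for *PSAT1* (r = 0.983), *JAM3* for *PSPH* (r = 0.931), *HGFAC* for *SHMT1* (r = 0.976), *LOC516494* for *SHMT2* (r = 0.928) and *RGN* for *MTHFD1* (r = 0.967). For the methionine genes they were *LOC100848570* for *GNMT* (r = 0.961), *C15H11orf71* for *BHMT* (r = 0.933), *DOK4* for *MAT1A* (r = 0.952) and *ADTRP* for *CBS* (r = 0.970). Like *GNMT*, *LOC100848570* had few counts, 0 to 38 per library. Without TN replicate 1 these values for genes other than *PHGDH* ran from 0.912 (*ADTRP*) to 0.983 (*LDAH*) over 8 cows. None of the 10 genes was among the 3 closest genes of another.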

How the data were processed

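Liver RNA of 9 cows, 3 in each of the TN, PF and HS groups, was sequenced by the authors as paired-end poly(A) libraries. The values used are the deposited read counts per gene, made by the authors with fastp 0.23.2, STAR 2.7.9a (ARS-UCD1.2) and featureCounts 2.0.3 and not normalized; the annotation release and the strand and multi-mapping settings were not given in the sources used here. All 9 columns were mapped to a cow by the labels. Symbols were looked up in RefSeq (ARS-UCD2.0), where *SHMT1*, *SHMT2* and *MAT1A* overlap *SMCR8* (at most 284 counts), *NDUFA4L2* (at most 58) and *DYDC1* (at most 16). Coordinates and sequences are not given.

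For every comparison of groups, edgeR 4.0.16 (R 4.3.3) was run on the 6 libraries concerned (TMM, filterByExpr, quasi-likelihood F test, Benjamini-Hochberg adjustment over all genes tested); the 3-group test used all 9. DESeq2 1.42.0, the tool of the study, was an alternative. SEs and 95% intervals come from the F statistic. An offset of 0.5 was added to CPM before taking log2. The scripts were tested on simulated counts. Replicates of a group differed by more than sampling noise. The labels do not say whether replicate numbers pair cows between groups, so the fits were unpaired.

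The 10 genes, the lists and the markers were chosen with earlier results of these data known. Named from the lists are 11 genes whatever their values (1 of them is in the list counts and is not otherwise reported here) and, in each comparison, the 3 with the smallest unadjusted p. The alternatives were size factors by RLE, library sizes without mitochondrial genes, no filter or a minimum of 10 counts per sample, a joint fit of the 9 libraries, a replicate block, an FDR under 0.05, glmTreat and each cow left out. Limits for a count of 0 cover counting error only, since the reads carry no molecular identifiers.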

Additional observations from a re-analysis of the deposited data

How the results depend on the processing

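With 3 cows in a group, edgeR called none of the 10 genes in any comparison, and the alternatives with edgeR (both filters, size factors by RLE, library sizes without mitochondrial genes, a joint fit of the 9 libraries, glmTreat, an FDR under 0.05, a replicate block and each cow left out) also called 0 of them. DESeq2 called 1 between PF and TN (*PHGDH*), 1 between HS and PF (*GNMT*) and 1 in the 3-group test (*PHGDH*), and 0 between HS and TN. The *GNMT* call is description only, as that gene had 0 to 7 counts in the PF cows. Of the 61 further pathway genes, 2 were called by DESeq2 between HS and TN and 2 between HS and PF, 2 without the filter on low counts between HS and PF (*ALDH1L2* and *GLDC*) and 1 without it between PF and TN (*CHKA*). When single cows were omitted, *PSAT1* ranged (log2 fold change) from -0.40 to 0.47 for HS against TN and from -0.76 to 0.10 for HS against PF, that of *PSPH* from -0.78 to 0.18 for HS against TN and from -0.15 to 0.88 for PF against TN, and that of *BHMT* from -0.11 to 0.54 for PF against TN. *MTHFD1* ranged from -0.48 to 0.080 for HS against TN, from -0.51 to 0.027 for HS against PF and from -0.11 to 0.22 for PF against TN, and *CBS* from -0.070 to 0.23 for HS against PF and from -0.011 to 0.45 for PF against TN. The other 19 of the 29 fold changes kept their direction in every fit. In a fit of all libraries without TN replicate 1, chosen after seeing the data, *PSAT1* and *PSPH* were at -0.0093 and 0.036 for HS against TN, and *MTHFD1*, *BHMT* and *CBS* at -0.10, -0.10 and -0.0045 for PF against TN. The cause of these changes was not tested. Over all genes, the 13, 4 and 0 DEGs of HS against TN, HS against PF and PF against TN became 270, 122 and 91 with DESeq2, 124, 98 and 136 without the filter, 0 to 39, 5 to 10 and 0 to 14 with single cows omitted (39 and 14 without TN replicate 2, 0 in HS against TN without HS replicate 2), and 4, 3 and 0 in the joint fit.

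The replicate numbers share no stated animal or day between groups. The deviations of same-numbered cows from their group means had correlations from -0.218 to 0.241 over 9 pairs, of which 3 were over 0.1, and 4 of 9 libraries correlated best with their own number. With the replicate block, edgeR called 0 of the 10 genes and 1 further pathway gene (*CSAD*) between HS and TN, and over all genes the block moved the number of DEGs from 13 to 33 between HS and TN, from 4 to 6 between HS and PF and from 0 to 1 between PF and TN.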

Other observations

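The methionine salvage pathway returns the sulfur and methyl group of methylthioadenosine, a by-product of polyamine synthesis, to methionine. Of its enzymes in the list, *APIP*, the dehydratase, had 16.7 to 17.6 CPM in PF cows, 6.31 to 10.2 CPM in TN cows and 9.15 to 13.3 CPM in HS cows, so that the PF cows stood above both other groups. Its log2 fold change was 1.07 (SE 0.27) for PF against TN (edgeR FDR 0.596, unadjusted p = 0.00208) and -0.62 (SE 0.24) for HS against PF (edgeR FDR 0.814). The other salvage genes were chosen after their values were seen. *ADI1*, the dioxygenase, had 803 ± 348 CPM in TN, 1347 ± 360.4 CPM in PF and 744 ± 72.0 CPM in HS cows, and each HS cow was below each PF cow (log2 fold change -0.86, SE 0.31, edgeR FDR 0.743). *MRI1*, the isomerase, had 10.5 ± 3.04 CPM in TN, 18.4 ± 6.69 CPM in PF and 17.5 ± 6.27 CPM in HS cows, with overlap among all groups. *MTAP* and *ENOPH1* had log2 fold changes of 0.43 (SE 0.28) and 0.24 (SE 0.32) for PF against TN, and 0.05 (SE 0.27) and 0.28 (SE 0.32) for HS against PF.

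*FOLR1*, which encodes a folate receptor and was also chosen after its values were seen, had 3.76 ± 2.73 CPM in TN, 7.70 ± 3.95 CPM in PF and 11.4 ± 4.26 CPM in HS cows. Each HS cow exceeded each TN cow, and the log2 fold change was 1.60 (SE 0.62, edgeR FDR 0.487).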
